A study of Mus musculus with 18 samples.

Results

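The immunoglobulin loci of the mouse are the heavy chain locus Igh on chromosome 12 and the light chain loci Igk on chromosome 6 and Igl on chromosome 16. They were described here as all 200-bp bins of the mm9 genome that overlap chr12:114496979-117248165, chr6:67505630-70694944 and chr16:19026858-19260844. These were 30875 of the 13274569 bins of the genome, with 13757 bins in Igh, 15947 in Igk and 1171 in Igl. The bounds of Igl are those of the GRCm38 assembly, where the V segment Iglv2 ends at 19260844, and were used as given, so that the end of Iglv2 in mm9, at 19260937, lies past the upper bound. The annotation placed 262 segment entries in the loci, of which 222 were V, 21 D, 9 J and 10 C segments. Of the C entries 2 overlap and are both named Ighe, and 2 V entries at different places share the name Igkv10-96. No J segment of Igl was in the annotation used.

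The cells were C10 cells, a derivative of the HAFTL pre-B cell line that carries a fusion of C/EBPα with the estrogen receptor hormone-binding domain, tagged with GFP. Treatment with β-estradiol (β-Est), in medium with IL-3 and CSF-1, induced their conversion into macrophage-like cells, and the controls received the ethanol solvent. Chromatin was immunoprecipitated and sequenced for C/EBPα at 0 hr post-induction (hpi), at 10, 30 and 60 min and at 3, 12, 24 and 48 hpi, and for C/EBPβ and PU.1 at 0, 3, 12, 24 and 48 hpi. There was 1 library for each of the 18 combinations of factor and time, so that no difference between libraries had a replicate check, and the intervals given are exact Poisson 95% intervals that cover counting error only.

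A V, a D and a J segment of Igh, or a V and a J segment of a light chain locus, are joined in developing B cells by V(D)J recombination, which cuts at recombination signals beside each segment and can remove the DNA between the segments joined. A recombination signal starts with a heptamer, which follows directly on the 3′ end of a V segment. Enhancers in the intron between the J and C segments of Igh and Igk, and further enhancers downstream of the C segments of Igk and Igl, drive transcription of these loci in B cells. PU.1, a factor of B cells and myeloid cells, is known to bind the light chain enhancers downstream of the C segments together with an interferon regulatory factor (IRF). C/EBPα and C/EBPβ are factors of the myeloid lineage.

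Reads were counted once per position and strand after the 5′ end was moved 75 bp inward, and were scaled to 10000000 reads per library, which are called normalised reads. Libraries held 2903580 to 24917810 such reads. A bin was called enriched in a library when it held at least 6 reads and at least 10 times the mean count per bin of that library. To compare long regions, reads were divided by the number expected from the uniquely alignable positions of the region and the read density in the 500 kb on either side of the locus, outside enriched bins. This quotient is called the ratio to the flanks.

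The bins with the highest PU.1 counts of 4 enhancer intervals are shown first, because the reads in them are described next. Enhancer intervals are those between J and C and beyond the C segments. They were placed by the annotated segments, without coordinates of known enhancers. That of the Igk interval between J and C, where PU.1 reads were few, as in the Igh bin, is described further on and not printed. The sequences are those of the mm9 assembly, plus strand, 5′ to 3′. Capitals mark an octamer (ATGCAAAT), an E-box (CAGGTG) and the sites GGAA and GAAA 2 bases apart, as bound by PU.1 with an IRF factor, each searched on both strands. The first bin, chr12:114665601-114665800, lay in the Igh interval between J and C, 925 bp downstream of Ighj4. The second, chr6:70685601-70685800, lay 8850 bp downstream of Igkc. The last pair, chr16:19027201-19027400 and chr16:19179401-19179600, lay 37927 bp downstream of Iglc3 and 18894 bp downstream of Iglc2.
Igh J-C bin: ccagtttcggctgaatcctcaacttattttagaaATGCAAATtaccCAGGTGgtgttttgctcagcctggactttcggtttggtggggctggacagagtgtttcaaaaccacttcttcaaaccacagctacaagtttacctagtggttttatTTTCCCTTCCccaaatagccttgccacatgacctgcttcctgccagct
Igkc downstream bin: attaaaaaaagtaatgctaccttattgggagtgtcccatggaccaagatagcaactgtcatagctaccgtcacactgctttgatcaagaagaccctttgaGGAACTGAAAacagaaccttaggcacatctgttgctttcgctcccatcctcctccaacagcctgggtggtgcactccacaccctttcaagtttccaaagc
Iglc3 downstream bin: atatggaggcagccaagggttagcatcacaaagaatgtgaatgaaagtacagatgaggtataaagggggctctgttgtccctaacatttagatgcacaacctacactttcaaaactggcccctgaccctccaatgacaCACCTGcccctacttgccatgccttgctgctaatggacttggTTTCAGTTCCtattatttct
Iglc2 downstream bin: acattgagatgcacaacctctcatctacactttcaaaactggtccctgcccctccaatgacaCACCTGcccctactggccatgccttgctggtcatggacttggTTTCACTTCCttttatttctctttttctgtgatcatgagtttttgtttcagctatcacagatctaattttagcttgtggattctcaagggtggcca

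The 4 bins printed held the PU.1-IRF site pair, which was found in 2.42% of all bins of the loci, and the leading PU.1 bin of the Igk J-C interval did not hold it. Further PU.1 bins of these intervals, chr6:70681001-70681200 and chr16:19152801-19153000, described below, also lacked it. The E-box stood in the Igh bin, in both Igl bins and in the Igk J-C bin, against 11.6% of all bins, and the octamer in the Igh bin alone, against 3.42%. The Iglc3 and Iglc2 bins resembled each other, with 96 of 124 bases identical in the best ungapped alignment. Among the 35 bins examined for motifs, which included the leading bins of each factor, the site pair occurred in 4 (11.4%, or 2 when the central 100 bp alone were searched), the E-box in 10 (28.6%), the octamer in 3 (8.57%) and a C/EBP motif (TTGCNNAA) in 8 (22.9%, against 9.97% of all bins). A PU.1 motif (GAGGAAGT) was present in 1 of the 35 (2.86%, against 1.22%). An NF-κB site (GGGANNTTCC) was in 0 of the 35, against 0.577% of all bins.

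PU.1 reads in the bin downstream of Igkc became few over the time course. It had 100 PU.1 reads at 0 hpi, 74 at 3 hpi, 36 at 12 hpi, 11 at 24 hpi and 8 at 48 hpi. These were 142 normalised reads (95% interval 115 to 172) at 0 hpi and 7.64 (3.30 to 15.1) at 48 hpi, with 113, 33.6 and 9.69 in between. The log2 ratio of 48 over 0 hpi was -4.21 (-5.46 to -3.18). The intervals of 0 and 3 hpi overlapped, whereas each later library lay below both. C/EBPα reads in the same bin numbered 1 at 0 hpi and at most 12, at 3 hpi, in the later libraries, and C/EBPβ reads numbered 3 or fewer.

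A second PU.1 bin, 4250 bp downstream of Igkc at chr6:70681001-70681200, did not follow this course. Its PU.1 values were 24.1, 39.5, 41.1, 20.3 and 18.2 normalised reads at 0, 3, 12, 24 and 48 hpi, so that the level at 48 hpi was close to that at 0 hpi. The whole interval beyond Igkc held 6 enriched bins among its 90, 5 of them with PU.1, against 0.716% of all bins of the loci.

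The intron between the Igk J segments and Igkc, where the intronic κ enhancer is known to lie, had a weak PU.1 bin at chr6:70675801-70676000, 429 bp upstream of Igkc. It had 12, 9, 4, 3 and 2 PU.1 reads over the 5 time points, or 17.0 (8.79 to 29.7) and 1.91 (0.231 to 6.90) normalised reads at the ends of the series, and a log2 ratio of -3.15 (-6.36 to -0.99). C/EBPα reads there were 3, 14, 12, 10, 9, 0, 0 and 3 from 0 to 48 hpi. The counts are small, and the direction of PU.1 was the same as in the bin 8850 bp downstream of Igkc.

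Both Igl bins also had fewer PU.1 reads at the later times. The bin downstream of Iglc2 had 167 PU.1 reads at 0 hpi, 120 at 3 hpi, 47 at 12 hpi, 34 at 24 hpi and 48 at 48 hpi, and with 237 normalised reads (202 to 276) at 0 hpi it had the highest PU.1 value among the bins of the enhancer intervals. At 48 hpi it still had 45.9 (33.8 to 60.8), a log2 ratio of -2.37 (-2.86 to -1.90). The bin downstream of Iglc3 had 67, 77, 29, 9 and 12 PU.1 reads, and had 95 (73.6 to 121) at 0 hpi and 11.5 (5.92 to 20) normalised reads at 48 hpi, a log2 ratio of -3.05 (-4.07 to -2.15). In both bins the values of 12, 24 and 48 hpi lay below those of 0 and 3 hpi, with intervals that did not overlap. A further PU.1 bin, 45494 bp downstream of Iglc2 at chr16:19152801-19153000, went from 96.4 normalised reads at 0 hpi to 92.8, 47.6, 29.1 and 24.8 at 3, 12, 24 and 48 hpi.

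C/EBPα reads near the Igl PU.1 bins were most at 30 and 60 min and few from 12 hpi on. In the bin next to that of PU.1 downstream of Iglc3 (chr16:19027401-19027600), C/EBPα reads numbered 0 at 0 hpi, 70 at 10 min, 199 at 30 min, 227 at 60 min and 88 at 3 hpi, and then 3, 1 and 3 at 12, 24 and 48 hpi. In normalised reads these were 153 (133 to 176) at 30 min and 116 (102 to 132) at 60 min. With a floor of 3 reads, or 3.38 normalised reads, in place of the 0 reads at 0 hpi, the quotient at 30 min was 45.2. This quotient depends on the floor chosen and is not a lower limit. The library of 30 min had 50-base reads and that of 0 hpi 36-base reads. C/EBPβ in this bin had 2 reads at 0 hpi, 21 at 3 hpi and 4 or fewer later. PU.1 had 31, 76, 23, 9 and 7 reads in it, with 116 normalised reads (91.1 to 145) at 3 hpi against 44.0 (29.9 to 62.4) at 0 hpi, so that PU.1 and C/EBPα were high together at 3 hpi and low together from 24 hpi. Downstream of Iglc2, C/EBPα peaked 600 bp beside the PU.1 bin, at chr16:19180001-19180200, with 5, 42, 76, 96, 14, 1, 1 and 2 reads, and the PU.1 bin itself had 8, 17, 39, 68, 13, 2, 1 and 0. In normalised reads the latter was 9.02 (3.89 to 17.8) at 0 hpi, 6.82 at 10 min, 30.0 at 30 min, 34.8 at 60 min and 11.7 at 3 hpi, so that 10 min and 3 hpi, whose intervals overlapped that of 0 hpi, could not be told from the level before induction.

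The Igh bin between J and C, where the intronic heavy chain enhancer Eμ is known to lie, held reads of all 3 factors. C/EBPα reads were 7 at 0 hpi, 46 at 10 min, 57 at 30 min, 89 at 60 min, 22 at 3 hpi, 19 at 12 hpi, and 6 at both 24 and 48 hpi. These counts come from libraries of unequal depth. In normalised reads the value was 7.89 (3.17 to 16.3) at 0 hpi, 18.5 at 10 min, 43.8 at 30 min, 45.5 (36.6 to 56.1) at 60 min, 19.8 (12.4 to 29.9) at 3 hpi, 31.8 (19.2 to 49.7) at 12 hpi, 7.91 at 24 hpi and 7.54 (2.77 to 16.4) at 48 hpi. The value at 12 hpi thus stood above that of 3 hpi, with intervals that overlapped. The log2 ratio of 60 min over 0 hpi was 2.53 (1.43 to 3.88), and that of 48 over 0 hpi was -0.07 (-1.91 to 1.73), so that C/EBPα at 48 hpi could not be told from its level before induction at this depth. PU.1 reads were 15, 17, 12, 3 and 5, with a log2 ratio of -2.15 (-3.97 to -0.62) for 48 over 0 hpi. C/EBPβ reads were 0, 10, 1, 1 and 3, and the bin was enriched for C/EBPβ at 3 hpi alone. The 61 bins between Ighe, the last C segment annotated here, and the lower bound of the locus held 0 enriched bins. The annotated bodies of Iglc3 and Iglc2, with 9 bins each, also held 0. With 0.709%, 0.295% and 0.716% of all bins of the loci enriched for C/EBPα, C/EBPβ and PU.1, regions of this size could hold none at the background share. The count does not cover the flank below the bound, where PU.1 was enriched in places, as at chr12:114456201-114456400.

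**Figure D1:**
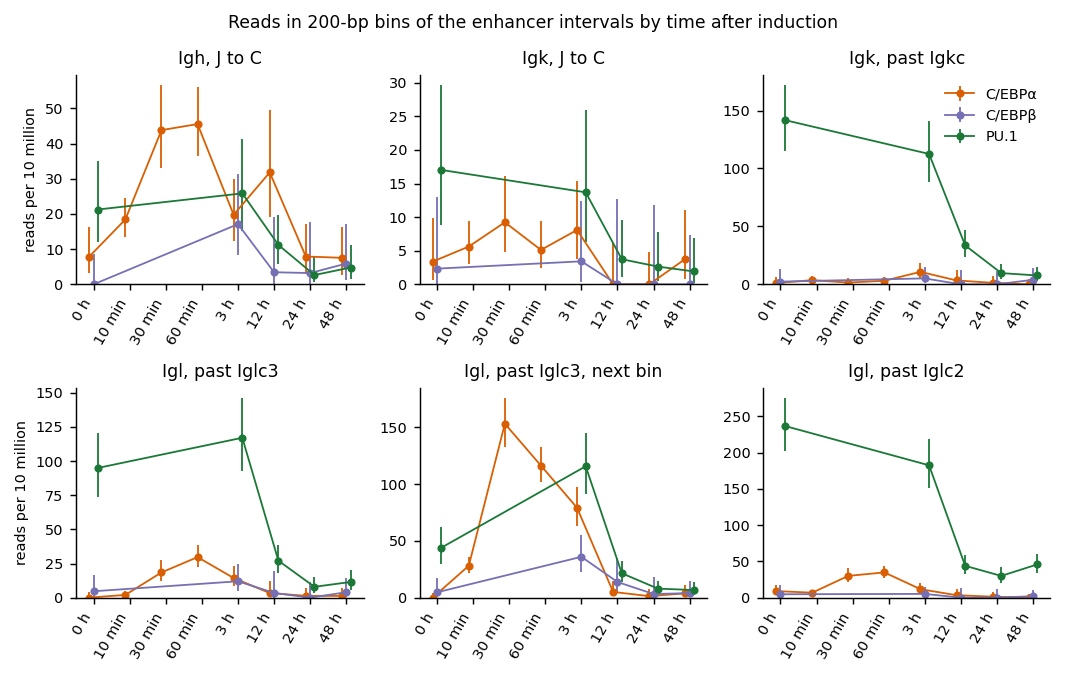
Normalised reads (vertical axes, from 0) in 6 bins of 200 bp in the enhancer intervals, against time after induction, with the time points evenly spaced. Points are single libraries, colored by factor, and bars are exact Poisson 95% intervals. PU.1 is lower at 24 and 48 hpi than at 0 hpi in all 6 panels, and C/EBPα passes through a maximum at 30 or 60 min in the Igh panel and in the bins of Igl.

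Over the 3 loci together, the share of bins enriched for C/EBPα lay above that of the genome early and below it late. The share of enriched bins was 0.0551% at 0 hpi (17 bins), against 0.0834% of all bins of the genome, 0.123% at 10 min (38 bins, genome 0.0639%), and 0.460% at 30 min (142 bins, genome 0.214%). At 60 min it was 0.457% (141 bins, genome 0.236%) and at 3 hpi 0.389% (120 bins, genome 0.313%). From 12 hpi on the loci held fewer enriched bins than the genome, with 0.113% (35 bins, genome 0.261%) at 12 hpi, 0.130% (40 bins, genome 0.297%) at 24 hpi and 0.136% (42 bins, genome 0.269%) at 48 hpi. The loci thus stood above the genome by 2.15 times at 30 min and below it, at 0.434 to 0.506 times, from 12 to 48 hpi. The excess was that of Igh and Igl. At 60 min 0.582% of the bins of Igh (Clopper-Pearson interval 0.461% to 0.723%) and 2.05% of those of Igl (1.32% to 3.03%) were enriched, whereas Igk, with 0.232% (0.163% to 0.320%), lay at the share of the genome. From 12 to 48 hpi the Igk shares of 0.0502% to 0.0815% were below the genome. In Igh the share was below it at 12 hpi, at 0.145% (0.0888% to 0.224%), and at 24 and 48 hpi, at 0.211% (0.141% to 0.303%) each, the interval included the share of the genome. In Igl, with 2 to 4 enriched bins, the intervals included it at all 3 times. The libraries of 10, 30 and 60 min had longer reads (50 bases) and another sequencer than the others, and the part of this in the result was not tested. The Clopper-Pearson intervals treat bins as independent, but enriched bins often adjoin. Joined across gaps of at most 1 bin, those of Igl formed 16 runs of up to 8 bins. The intervals, also those for PU.1 and C/EBPβ below, may therefore be too narrow.

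For PU.1 the 3 loci together lay below the genome at every time, but Igl alone lay above it. The shares of the loci together were 0.415% at 0 hpi (128 bins, genome 0.568%), 0.453% at 3 hpi (140 bins, genome 0.633%) and 0.356% at 12 hpi (110 bins, genome 0.853%). They were 0.236% at 24 hpi (73 bins, genome 0.654%) and 0.337% at 48 hpi (104 bins, genome 0.663%). As a quotient the share was lowest at 24 hpi, at 0.361 times that of the genome, and as a difference in percentages the distance was widest at 12 hpi. In Igl 15, 23, 17, 11 and 15 of the 1171 bins were enriched, or 1.28%, 1.96%, 1.45%, 0.939% and 1.28%, and the intervals at 0, 3 and 48 hpi excluded the share of the genome. The Igk shares of 0.113% to 0.276% were the lowest of the 3 loci at each time. Bins were called against the mean of the whole library, without correction for coverage, which differed between the loci. With all 18 libraries summed, the median ratio to the flanks in 10-kb windows was 0.588 in Igh, 0.479 in Igk and 1.07 in Igl. Bins without any read made up 27.2%, 31.5% and 11.5%. How far coverage lowered the shares was not tested, and the shares given for the other factors carry the same limit.

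C/EBPβ had few enriched bins at any time, in libraries of at most 5844202 reads. They were 5 at 0 hpi (0.0162%, genome 0.0258%), 61 at 3 hpi (0.198%, genome 0.130%) and 11 at 12 hpi (0.0356%, genome 0.0360%). At 24 hpi there were 21 (0.0680%, genome 0.0758%) and at 48 hpi 54 (0.175%, genome 0.229%). At 3 hpi the 3 loci together stood above the genome, at 1.52 times. By locus the share at 3 hpi was 0.225% in Igh, 0.125% in Igk, close to the genome, and 0.854% in Igl. In Igl the share was above the genome at all 5 times, with 1, 10, 2, 4 and 6 enriched bins, but the intervals excluded the share of the genome at 3 and 24 hpi and included it at 0, 12 and 48 hpi.

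**Figure D2:**
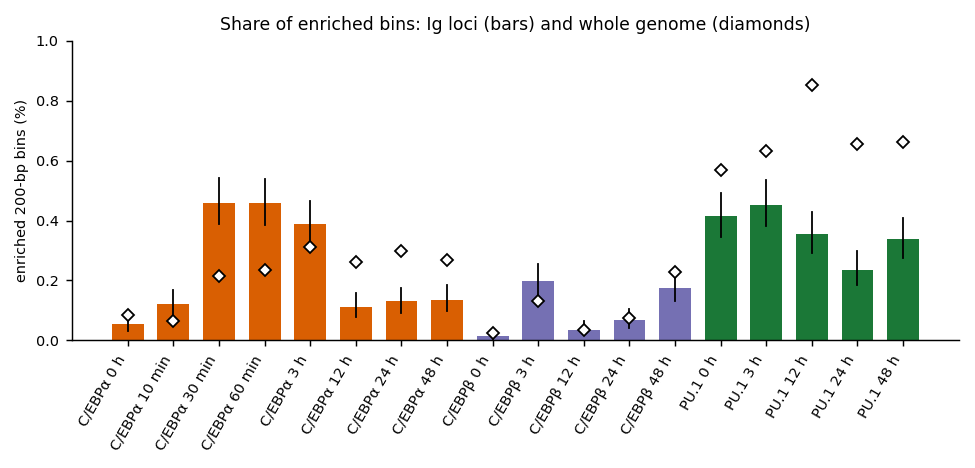
Percent of 200-bp bins that were enriched (vertical axis, linear from 0) in each of the 18 libraries (horizontal axis). Bars show the 30875 bins of the Ig loci with Clopper-Pearson 95% intervals and diamonds the 13274569 bins of the genome. The bars exceed the diamonds for C/EBPα at 10, 30 and 60 min and 3 hpi and for C/EBPβ at 3 hpi, and lie under them for PU.1 at all 5 times, for the sum of the 3 loci.

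The time of the highest value was early at these loci for C/EBPα and PU.1. Of 219 bins enriched for C/EBPα in any library, 78 (35.6%) had their highest normalised value at 30 min and 66 (30.1%) at 60 min, against 9.99% and 10.4% of the 109279 such bins of the genome. The libraries of 12, 24 and 48 hpi were highest in 9, 7 and 9 of the 219, or 4.11%, 3.20% and 4.11%, against 20.4%, 17.6% and 16.6% of the genome. For C/EBPα, reads of the 30 and 60 min libraries were longer than those of 0, 3, 12, 24 and 48 hpi. More positions were uniquely alignable with the longer reads, 74.8% against 65.0% in Igh and 72.2% against 61.9% in Igk. Normalised values were not corrected for this, and its part in the result was not tested. Of 221 bins enriched for PU.1, 67 (30.3%) were highest at 0 hpi and 81 (36.7%) at 3 hpi, against 15.7% and 20.1% of the genome. Only 6 of the 221 were highest at 24 hpi (2.71%, genome 10.7%), and 34 at 48 hpi (15.4%, genome 18.8%), of which 31 lay in Igh. For C/EBPβ the highest value was most often at 48 hpi, in 37 of 91 bins (40.7%, genome 58.7%), of which 28 lay in Igh, and 34 bins (37.4%, genome 20.4%) were highest at 3 hpi.

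PU.1 was lower at 48 hpi in most of the bins examined in the light chain loci and in a minority of those of the heavy chain locus. Among bins enriched at 0 or 48 hpi, a change past 2-fold on the scale of normalised reads plus 1 was counted. In Igk 1 of 48 bins was higher at 48 hpi and 30 (62.5%, Clopper-Pearson interval 47.4% to 76.0%) were lower, and in Igl 3 of 18 were higher and 11 (61.1%, 35.7% to 82.7%) were lower. In Igh 26 of 100 bins were higher and 21 (21%, 13.5% to 30.3%) were lower. Of all 117278 bins of the genome so examined, 30.4% were higher and 21.8% lower, so that the share of lower bins in Igh lay near that of the genome and the shares in Igk and Igl lay above it. Bins of a locus share a library and are not replicates.

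C/EBPα at 3 hpi was higher than at 0 hpi in 114 of 129 bins (88.4%, genome 74.1%) and lower in 5 (3.88%, genome 8.78%). At 48 hpi it was higher in 31 of 51 (60.8%, genome 60.0%) and lower in 5 (9.80%, genome 12.2%), near the background in both directions. C/EBPβ at 48 hpi was higher in 46 of 57 bins (80.7%, genome 84.9%) and lower in 2 (3.51%, genome 4.30%), again near the background.

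Enriched bins joined across gaps of at most 1 bin gave 228 windows, of which 146 were in Igh, 66 in Igk and 16 in Igl. PU.1 was enriched in 141 of them, C/EBPα or C/EBPβ in 140, and both kinds in 53. Windows were not counted over the genome, so that whether these numbers are high or low cannot be said. A V, D, J or C segment was overlapped by 46 windows, and the median distance to the nearest segment was 3644 bp. Bins over Igh V segments were enriched for C/EBPα in 31 of 345 (8.99%), against 0.709% of all bins of the loci, and bins over Igk V segments for PU.1 in 20 of 401 (4.99%, against 0.716%). In Igl 2 of the 9 bins over V segments (22.2%) were enriched for C/EBPα, 2 for C/EBPβ and 1 for PU.1. Bins over D and J segments, 23 and 10 in number, held 0 enriched bins, and bins over C segments held 1, for PU.1 in Igh, which are too few bins to tell such counts from the background shares.

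Among the leading windows 3 courses recurred, though not every window followed one. The Igl bin chr16:19027401-19027600, described above, joined the early C/EBPα course with PU.1. The first course was C/EBPα that was highest at 30 or 60 min, in one bin about as high at 3 hpi, with little left at 48 hpi and few PU.1 reads. The bin 1082 bp downstream of Igkv15-103 (chr6:68389001-68389200) had 3, 73, 165, 233, 125, 25, 17 and 7 C/EBPα reads and 2 or fewer PU.1 reads per library. In normalised reads its C/EBPα values were 127 (108 to 148) at 30 min, 119 at 60 min and 112 (93.5 to 134) at 3 hpi, with intervals that overlapped. The bin 24044 bp upstream of Igkv3-12 (chr6:70444001-70444200) had 6, 92, 132, 150, 59, 10, 3 and 2, and the bin 5728 bp upstream of Ighv14-4 (chr12:115420801-115421000) had 1, 55, 71, 98, 13, 1, 0 and 1. PU.1 reads in these bins numbered 3 or fewer and 2 or fewer per library, and a neighbouring bin of the same window as the latter was enriched for PU.1 in 1 library, with 9.12 normalised reads. The bin 11927 bp downstream of Iglc3 (chr16:19053201-19053400) behaved alike, with 104 reads at 30 min, 131 at 60 min and 1 at 48 hpi. The Igkv15-103 bin is shown because it had the highest C/EBPα value of these, 127 normalised reads at 30 min, and holds a C/EBP motif, in capitals (mm9, plus strand).
Igkv15-103 downstream bin: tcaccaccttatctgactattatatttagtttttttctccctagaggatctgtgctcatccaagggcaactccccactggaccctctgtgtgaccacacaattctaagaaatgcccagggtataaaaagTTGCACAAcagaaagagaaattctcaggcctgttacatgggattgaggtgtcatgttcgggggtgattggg

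The second course was binding that lasted or came late. The bin 36647 bp downstream of Igkv2-109 (chr6:68289801-68290000) had 0, 6, 8, 38, 63, 38, 43 and 29 C/EBPα reads and 0, 14, 11, 10 and 28 C/EBPβ reads, so that both factors were present at 48 hpi, with 36.4 and 55.2 normalised reads. The bin 14724 bp upstream of Ighv1-78 (chr12:117122001-117122200) went for C/EBPβ from 2.33 normalised reads at 0 hpi to 51.2 at 48 hpi, and for PU.1 from 4.25 to 20.1. The bin 4229 bp upstream of Iglv3 (chr16:19246001-19246200) had all 3 factors in all 18 libraries, with PU.1 between 28.2 and 51.7 normalised reads.

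The third course was PU.1 in bins not enriched for C/EBPα or C/EBPβ. At Igkv8-21, the bin 89 bp downstream of the segment (chr6:70264601-70264800) had 75, 48, 57, 46 and 41 PU.1 reads, or 106 to 39.2 normalised reads from 0 to 48 hpi, and 4 or fewer reads in each C/EBPα and C/EBPβ library. The bin over the start of Igkv1-135 (chr6:67559601-67559800), which held an octamer, went from 82.2 PU.1 normalised reads at 0 hpi to 19.1 at 48 hpi. In Igh, the bin 1536 bp upstream of Ighv9-4 (chr12:115540001-115540200) kept PU.1 throughout, with 59.6, 94.3, 79.3, 62.6 and 71.7 normalised reads, and was the bin that held both a C/EBP and a PU.1 motif. It had up to 9 C/EBPα reads, at 30 min, and up to 5 C/EBPβ reads, at 48 hpi, without being enriched for either. The bin 5972 bp downstream of Ighv1-69 had 22.7 at 0 hpi and 50.6 at 48 hpi.

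At V segments, the summed reads of each factor were denser at the 3′ end, on the side of the recombination signal, than at the start, with a few segments giving much of the sum. Within 200 bp of the start, the ratio to the flanks over the 222 V segments was highest for PU.1, at 1.55 (1.47 to 1.62). It was 1.22 (1.17 to 1.26) for C/EBPα, and C/EBPβ had 1.17 (1.09 to 1.26). Within 200 bp of the 3′ end, it reached 2.75 (C/EBPα), 2.20 (C/EBPβ) and 2.38 (PU.1) over the 219 segments of Igh and Igk. In Igk PU.1 had a lower maximum at the start as well, with 2.25 and 2.04 in the 100 bp before and after it. The position at the 3′ end was chosen after the read profile had been seen.

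At the 3′ ends of the 116 Igh V segments all 3 factors had more reads than expected, with the highest ratios for C/EBPα from 30 min to 3 hpi and for C/EBPβ at 48 hpi. The C/EBPα ratio was 1.43 before induction (1.22 to 1.66) and 1.95 after 10 min (1.81 to 2.09). It then reached 4.82 at 30 min (4.51 to 5.14), 5.00 at 60 min (4.73 to 5.28) and 4.55 at 3 hpi (4.2 to 4.91). It was 2.93, 2.66 and 2.34 (2.05 to 2.67) at 12, 24 and 48 hpi, still above the value before induction. For C/EBPβ it was 1.81 (1.48 to 2.19) at 0 hpi, 2.91 at 3 hpi, 2.16 at 12 hpi, 3.27 at 24 hpi and 4.44 (3.96 to 4.97) at 48 hpi. C/EBPα was thus highest at the early times and C/EBPβ at the last. PU.1, with 2.09 (1.79 to 2.42) at 0 hpi, where it exceeded C/EBPα and overlapped C/EBPβ in its interval, stayed between 1.29 (1.12 to 1.48) at 24 hpi and 2.55 (2.20 to 2.93) at 3 hpi. Between 900 and 1500 bp away the C/EBPα ratio was 0.425 to 0.765.

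At the 103 Igk V segments PU.1 had the highest ratio at 0, 3 and 12 hpi, with intervals apart from those of C/EBPα and C/EBPβ, and lower ratios at 24 and 48 hpi. C/EBPα was highest from 30 min to 3 hpi. The PU.1 ratio was 4.04 (3.6 to 4.51) at 0 hpi, 4.15 (3.69 to 4.66) at 3 hpi, 3.34 (3.01 to 3.71) at 12 hpi, 2.14 (1.89 to 2.42) at 24 hpi and 2.19 (1.92 to 2.48) at 48 hpi. The C/EBPα ratio was 1.09 before induction, 3.08 at 30 min, 3.22 at 60 min (3.00 to 3.45), 2.70 at 3 hpi and 1.63 at the last time (1.39 to 1.90), and C/EBPβ lay between 1.11 and 1.67. The 10 ends with most reads gave 66.6% of the PU.1 reads at Igk ends. Without them the ratio of the 5 libraries together was 1.12 in place of 3.00. Most of the excess over the flanks thus came from a few segments. The Igk ratios of C/EBPα and C/EBPβ without their 10 highest ends were 0.916 and 0.692, against 2.17 and 1.40, and thus below the flanks. The V region of Igk as a whole had lower ratios still, 0.528 for C/EBPα, 0.506 for C/EBPβ and 0.499 for PU.1. A ratio near or below 1 at these ends is therefore not a level below the rest of the region. At Igh ends the 10 highest gave 42.4% of the C/EBPα reads. The Igh ratios without the 10 highest were 2.11 against 3.31 for C/EBPα, 2.00 against 3.02 for C/EBPβ and 1.09 against 1.86 for PU.1.

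**Figure D3:**
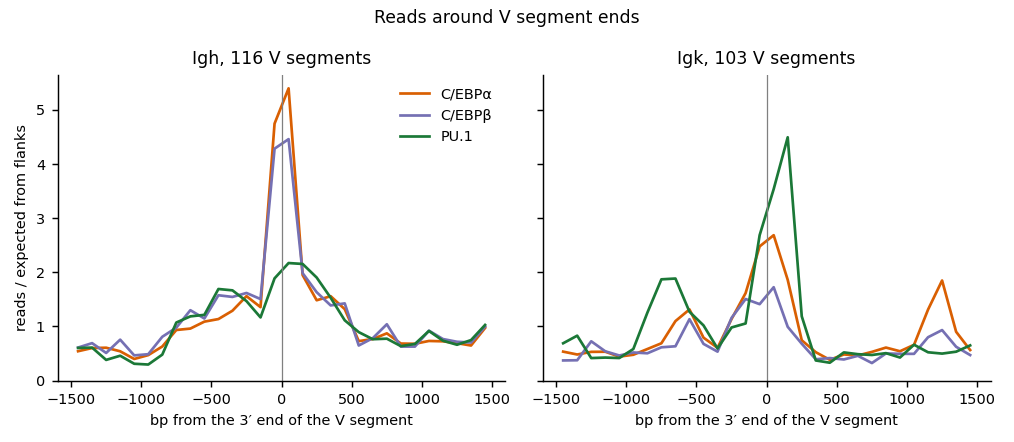
Reads divided by the number expected from the flanks (vertical axes, linear from 0) in 100-bp steps from the 3′ end of V segments (horizontal axes, bp, oriented along the segment), summed over the libraries of each factor. The C/EBPα and C/EBPβ lines peak at the end of Igh V segments (5.40 and 4.46), and the PU.1 line just past the end of Igk V segments (4.49).

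Some of the segments behind these sums are given with 120 bases around their 3′ end, since the reads center there. Each is printed on the strand of the segment, 5′ to 3′, from mm9, with 60 bases of the segment first. Capitals mark the heptamer CACAGTG and the string TTGCAA, which resembles a C/EBP site but does not by itself match the motif TTGCNNAA used above. Ighv14-3 (chr12:115297996-115298115, minus strand), Ighv1-55 (chr12:116446246-116446365, minus strand) and Ighv1-9 (chr12:115821720-115821839, minus strand) had the most C/EBPα reads among Igh ends. Igkv5-48 (chr6:69676507-69676626, minus strand) had the most C/EBPα reads and Igkv8-21 (chr6:70264829-70264948, minus strand) the most PU.1 reads among Igk ends.
Ighv14-3 end: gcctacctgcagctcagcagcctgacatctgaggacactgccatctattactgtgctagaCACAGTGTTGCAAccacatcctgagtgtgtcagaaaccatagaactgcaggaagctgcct
Ighv1-55 end: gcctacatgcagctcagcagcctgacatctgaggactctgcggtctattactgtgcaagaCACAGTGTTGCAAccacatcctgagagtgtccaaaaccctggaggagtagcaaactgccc
Ighv1-9 end: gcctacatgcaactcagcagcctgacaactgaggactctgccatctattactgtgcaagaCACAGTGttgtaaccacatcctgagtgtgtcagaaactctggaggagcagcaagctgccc
Igkv5-48 end: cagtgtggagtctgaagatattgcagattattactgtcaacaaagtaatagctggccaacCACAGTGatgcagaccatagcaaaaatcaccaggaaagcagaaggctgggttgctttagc
Igkv8-21 end: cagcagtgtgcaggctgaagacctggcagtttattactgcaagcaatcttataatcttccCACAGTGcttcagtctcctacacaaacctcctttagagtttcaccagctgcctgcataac

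Ighv14-3 had 311 C/EBPα reads over the 8 libraries within 200 bp of its end, 23.4 times the number expected, and 71 C/EBPβ reads but 14 PU.1 reads. Ighv1-55 had 225 C/EBPα reads (22.4 times) and Ighv1-9 had 287 (18.8 times). Igkv5-48 had 816 C/EBPα reads (48.4 times) and 26 PU.1 reads, whereas Igkv8-21 had 325 PU.1 reads (64.1 times) and 28 C/EBPα reads. Ighv1-9 also held 46 PU.1 reads (6.50 times), so that the ends differed in how far one factor prevailed. The Igh ends with the most PU.1 reads, not printed, were Ighv8-14 (108 reads, 16.0 times), Ighv8-12 (95, 16.6 times) and Ighv8-11 (56, 13.1 times). All of these lacked the heptamer CACAGTG. Over Igh ends the PU.1 ratio was 1.67 (1.55 to 1.80) with the heptamer and 2.34 (2.11 to 2.58) without it, but the medians were 1.17 and 0.46.

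In Ighv14-3 and Ighv1-55 the string TTGCAA stood directly behind the heptamer, inside the spacer of the recombination signal. The string was found within 100 bp of 16 of the 116 Igh ends (13.8%), against 6.70% of all Igh bins, and the heptamer CACAGTG at 85 (73.3%, against 5.2%). The motif TTGCNNAA was at 6 of the 116 ends (5.17%), against 10.1% of Igh bins. The string was picked from the ends with the most C/EBPα reads, which are counted among the 16, so that the values that follow describe these ends and are no support for it. At the 16 ends with TTGCAA the C/EBPα ratio was 9.91 (9.42 to 10.4), with a median over ends of 9.26, and at the 100 ends without it the ratio was 2.44 (2.35 to 2.53), with a median of 1.11. C/EBPβ gave ratios of 10.1 and 2.09, with medians of 10.5 and 1.16. PU.1 gave 1.83 (1.52 to 2.19) and 1.86 (1.75 to 1.98), but medians of 1.60 and 0.82, so that the medians, unlike the summed reads, lay apart. In Igk TTGCAA was at 11 of the 103 ends (10.7%, against 7.47% of Igk bins). Of these 11 ends 2 had over 2 times the C/EBPα reads expected, with a median of 1.52 against 0.85 at the 92 others, and Igkv5-48, the Igk end with the most C/EBPα reads, lacked it.

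At the Igh ends the order was the same in each C/EBPα and C/EBPβ library. The string was picked from ends with the most reads in these C/EBPα libraries, so that this order is no independent check. For C/EBPα the ratio at the 16 ends was 3.34 at 0 hpi, 4.97 at 10 min, 13.7 at 30 min, 15.8 at 60 min, 15.2 at 3 hpi, and 9.36, 8.61 and 6.77 at 12, 24 and 48 hpi, against 1.18, 1.54, 3.62, 3.53, 3.18, 2.11, 1.90 and 1.78 at the 100 other ends. For C/EBPβ it was 3.59, 10.4, 5.49, 11.3 and 16.9, against 1.58, 1.93, 1.72, 2.22 and 2.82. V segments of 1 family share sequence and are not independent. Of the 16 ends 11 belonged to the Ighv1 family and 4 to the Ighv14 family, and within Ighv1 the C/EBPα ratio was 10.3 at the 11 ends with the string, ranging from 1.28 to 22.4, and 3.52 at the 47 without it, ranging from 0 to 18.8. The ranges overlapped, as Ighv1-9, which lacks the string, shows.

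In Igk, GAGGAAGT was found at 25 of 103 ends (24.3%, against 1.24% of Igk bins). Most of these ends were of the Igkv4 family, whose members share sequence and are not independent. The PU.1 ratio was 5.25 at the ends with the string and 2.54 at the 78 others, but the medians were 0.47 and 0.96. Single ends and not the whole set carried the difference, as Igkv8-21 alone gave 325 of the 436 PU.1 reads. Several of the Igkv4 ends lay in the block from Igkv4-78 to Igkv4-68, where the PU.1 ratio was 0.163, so that the medians also reflect their place.

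At V segment starts a few segments stood out. The start of Igkv1-135 had 84, 45, 62, 43 and 31 PU.1 reads, 265 in all against 4.67 expected, and 3 or fewer C/EBPβ reads per library. The starts of all 103 Igk segments together had 806 PU.1 reads. The start of Igkv15-103 had 10, 45, 55, 111, 27, 9, 4 and 6 C/EBPα reads and 22, 18, 12, 4 and 2 PU.1 reads. Of the 116 Igh segments 7 had no read at their start in the 18 libraries and 24 had no PU.1 read, and of the 103 Igk segments 9 and 32.

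Reads were not spread evenly over the loci. With all libraries summed, Igh had 6112 normalised reads, Igk 5288 and Igl 1120. In 10-kb windows the median ratio to the flanks, with all 18 libraries summed, was 0.588 in Igh, 0.479 in Igk and 1.07 in Igl. Windows at a ratio of 0.1 or less numbered 16 of 275 in Igh, 50 of 318 in Igk and 0 of 23 in Igl. Along Igh, blocks of 250 kb outside enriched bins were lowest near the D segments and the first V segments (PU.1 0.203, C/EBPα of 10 to 60 min 0.354) and exceeded the flanks in the 500 kb of distal V segments from Ighv8-11 to Ighv1-85 (PU.1 1.36 and 1.21). In Igk the first 4 blocks, from Igkv2-137 to Igkv1-99, had PU.1 ratios of 0.70 to 0.977, and the block from Igkv4-78 to Igkv4-68 the lowest, 0.163. Igl, taken as 1 block outside enriched bins, had a PU.1 ratio of 1.14. With its enriched bins included, the PU.1 ratio of Igl was 2.28, 2.65, 1.83, 1.40 and 1.59 at 0, 3, 12, 24 and 48 hpi.

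**Figure D4:**
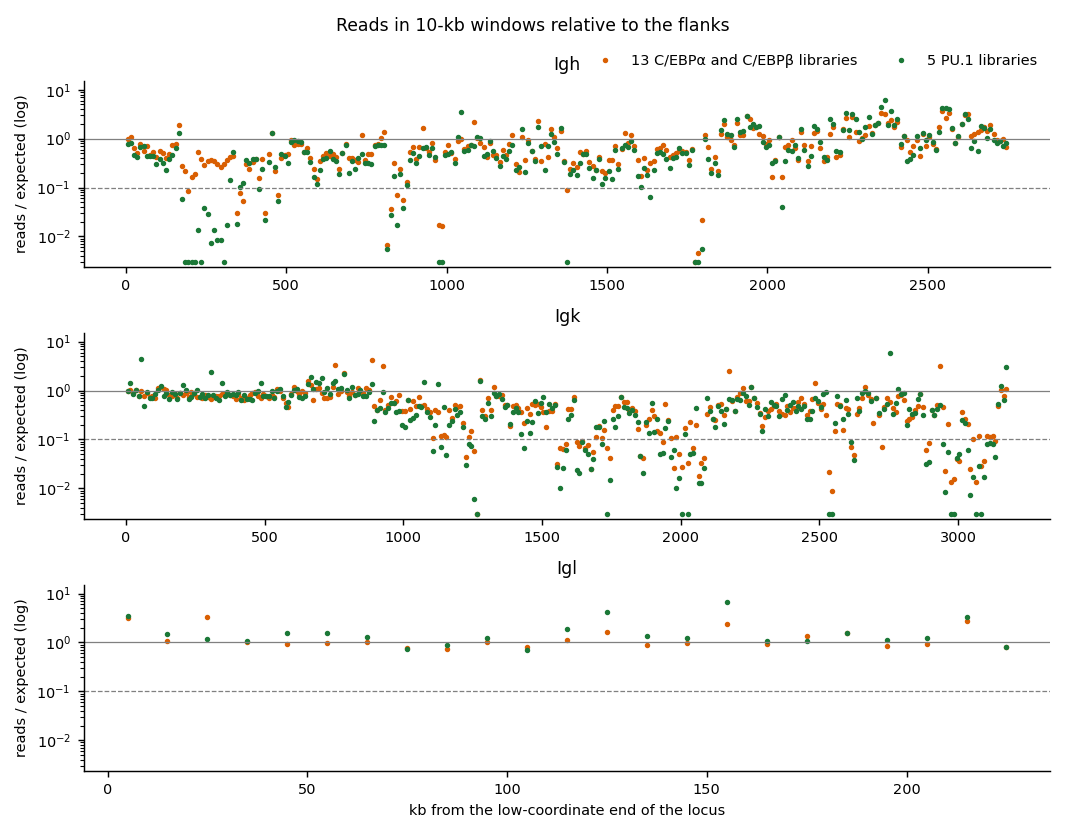
Reads divided by the number expected from the flanks (vertical axes, log scale) in 10-kb windows along Igh, Igk and Igl (horizontal axes, kb from the end of the locus with the lower coordinate). Orange points sum the 13 C/EBPα and C/EBPβ libraries and green points the 5 PU.1 libraries, windows without reads are drawn at the lower edge, and the dashed line marks a ratio of 0.1 and the solid line a ratio of 1. In the D segment region of Igh the green points fall far below the orange ones, and in Igl no point lies under the dashed line.

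PU.1 reads were nearly absent from a 154 kb stretch of Igh in which C/EBPα and C/EBPβ reads were present. The stretch was delimited by its low PU.1 reads, as the longest run of low 2-kb windows in Igh, with 1967 such windows assessed in the 3 loci, so that its PU.1 values are a description. The stretch, chr12:114668801-114822800, started 757 bp beyond the last J segment and held 20 of the 21 D segments and the V segments Ighv2-1 and Ighv5-2. It had 5, 0, 4, 6 and 3 PU.1 reads at 0, 3, 12, 24 and 48 hpi, where 259, 233, 421, 482 and 389 were expected from the flanks. The 18 reads together were 0.0101 (0.00598 to 0.0159) of the 1785 expected. They lay in 16 of 770 bins with at most 2 in a bin, and the first 48.2 kb of the stretch had none.

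The 13 C/EBPα and C/EBPβ libraries had 1505 reads in the same stretch, 0.305 (0.290 to 0.321) of the number expected. Single libraries ranged from 0.189 (0.135 to 0.257) for C/EBPβ at 48 hpi to 0.446 (0.353 to 0.556) for C/EBPβ at 0 hpi, and the highest PU.1 value was 0.0193 (0.00626 to 0.0450), at 0 hpi. The C/EBPα libraries of 10, 30 and 60 min had 0.324 (0.302 to 0.347) and the other C/EBP libraries 0.286 (0.265 to 0.308), so that both sets lay above PU.1. The PU.1 libraries had 36-base reads, as did the C/EBPα libraries of 0 and 3 to 48 hpi, but as a set they differed from the C/EBP libraries in other ways. The PU.1 files held 8859 to 14580 reads on contigs outside the chromosomes, against 0 in the 13 C/EBP files, and 0.00841% to 0.0141% of their reads fell on chromosome Y, against 0.0459% to 0.0569%. The part of this in the result was not tested.

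On both sides of the stretch PU.1 was present. In the 100 kb of V segments that followed, the ratio was 0.256 (0.226 to 0.289) for PU.1 and 0.247 (0.229 to 0.266) for the C/EBP libraries. In the region of the C segments from Ighe to Ighm it was 0.511 (0.482 to 0.540) and 0.642 (0.622 to 0.662). In the part from the last J segment to the last of the 18 D segments before the widest gap, which lies almost wholly in the stretch and shares its selection, PU.1 had 2 reads of 580 expected and the C/EBP libraries had 312, or 0.197 (0.175 to 0.220). The bins over the 21 D segments had 1 PU.1 read of 52.6 expected, 28 C/EBPα reads of 117 and 9 C/EBPβ reads of 24.9.

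**Figure D5:**
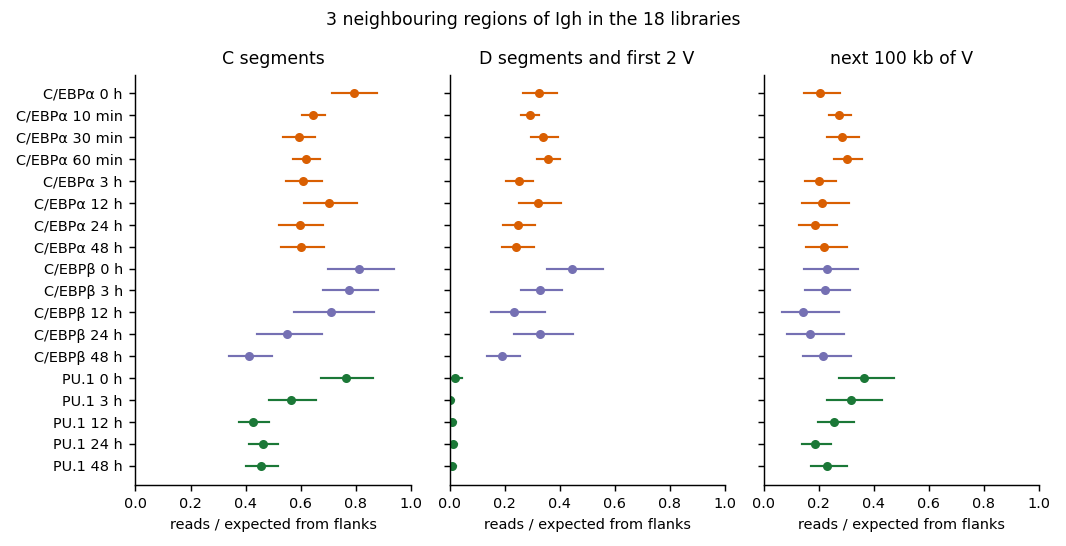
Reads divided by the number expected from the flanks (horizontal axes, linear from 0 to 1) in 3 neighbouring regions of Igh for each of the 18 libraries (rows), with exact Poisson 95% intervals as lines. The 5 PU.1 libraries lie near 0 in the middle region alone, where the 13 C/EBPα and C/EBPβ libraries lie between 0.189 and 0.446.

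The authors kept reads that aligned uniquely and without mismatches. A stretch that is missing from the DNA of the cells and a stretch whose sequence differs from the reference strain cannot be told apart from such reads, and neither can a part of the cells lacking a stretch be told from a lower density of unique reads. Whether the PU.1 and the C/EBP chromatin came from the same cultures is not given in the sources used here. The share of all reads that fell on chromosome 12 was 4.23% to 4.32% in the PU.1 libraries, 4.37% to 4.39% in the C/EBPα libraries of 10, 30 and 60 min, and 3.41% to 3.77% in the other C/EBPα and the C/EBPβ libraries. The part of this in the result was not tested.

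In 2 stretches of 10 kb or more, no library had a read. In Igh, chr12:116265401-116277200 (11.8 kb, between Ighv1-47 and Ighv1-49) had 0 reads where 738 were expected, with 10586 uniquely alignable start positions for 36-base reads. In Igk, chr6:70473201-70483800 (10.6 kb, between Igkv3-12 and Igkv3-10) had 0 reads of 170 expected, with 2207 such positions. Neither held an annotated segment. Both were selected as empty in the sum of all 18 libraries, so that they are empty for each factor by that rule. The D segment stretch was delimited by PU.1 reads alone, and its difference from these 2 stretches follows from the selection.

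With all 18 libraries summed, the longest runs of low windows lay in Igk, in the V segments of the Igkv4 and Igkv3 families, whereas in the PU.1 libraries alone the longest was the 150 kb run in Igh over the D segments, described above. The run of 70 kb at chr6:69125601-69195600, with Igkv4-74 to Igkv4-71, had 175 reads of 2759 expected, a ratio of 0.0634. The run of 60 kb at chr6:70545601-70605600, with Igkv3-7, had 101 of 2098, and that of 50 kb at chr6:69465601-69515600, with Igkv4-57-1, had 130 of 2160. A run of 40 kb each at chr6:69055601-69095600 and chr6:70475601-70515600 had 111 of 2018 and 26 of 1032. These runs were found from the sum of all libraries. PU.1 was lower than C/EBP in the 60 kb run, at 0.0128 (0.00468 to 0.0278) against 0.0584 (0.0472 to 0.0713), and in the 50 kb run, at 0.0266 (0.0141 to 0.0454) against 0.0701 (0.0579 to 0.084), and in the other 3 runs the intervals overlapped. Of 316 Igk windows in which both sets of libraries could be assessed, 43 were low in both, 19 in PU.1 alone and 0 in C/EBP alone, whereas in Igh 14 of 275 were low in both, 17 in PU.1 alone and 2 in C/EBP alone.

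Bins without a read in any library made up 27.2% of Igh, 31.5% of Igk and 11.5% of Igl. Of the 3744 such bins in Igh, 419 had no uniquely alignable position, and of the 5016 in Igk 771. The corresponding number in Igl was 60 of 135, and only 2 of the 135 were alignable over most of their length, against 1542 in Igh and 1757 in Igk.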

How the data were processed

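Chromatin from C10 cells was immunoprecipitated for C/EBPα, C/EBPβ or PU.1 and sequenced, 1 library per factor and time. The authors aligned reads to mm9 with ELAND or Bowtie, allowing no mismatch, kept unique alignments and state that identical reads were removed, and deposited aligned reads. The C/EBPα files of 0 and 3 to 48 hpi still held 0.0901% to 2.51% repeats of a position and strand, so that the values used are counts of deposited reads taken once per position and strand. Bowtie and HOMER are named in the submitters' processing notes. Reads had 36 bases (C/EBPα at 0 and 3 to 48 hpi, PU.1), 40 (C/EBPβ) or 50 (C/EBPα at 10, 30 and 60 min).

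Read 5′ ends were moved 75 bp inward, counted once per position and strand in 200-bp bins and scaled to 10000000 reads per library (normalised reads). Libraries held 2903580 to 24917810 reads, and counting error alone is covered by the intervals (exact Poisson for reads, Clopper-Pearson for shares, 95%). Uniquely alignable positions were computed from the mm9 sequence for each read length. Expected reads came from the flanks of 500 kb, outside enriched bins. With 1 library a group no test between libraries was made. Low windows had a ratio of at most 0.1 and at least 20 expected reads. Changes used a pseudocount of 1 normalised read. Segment names were matched to RefSeq for 258 of 262 segments.

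Named for each factor were the 5 windows of Igh, 5 of Igk and 3 of Igl with the highest bin and the 5 V segments with most reads at their start, and further the J-C intervals, the intervals beyond the last C segment, stretches without reads of at least 10 kb and the 5 longest low runs. The members and lists were chosen with earlier results of these data known, and the V segment ends, the strings searched there and the families were added after the data had been seen. On simulated data, 100% of 20 windows without reads and 0% of 20 at a ratio of 0.3 were called low. The first of these was fixed by the rule. Of 3600 bins with 10 added reads, 79.3% were called enriched. These bins were simulated at the density of the flanks and pooled over libraries that needed 6 to 19 reads for a call. Python 3.11.15, NumPy 2.4.6, SciPy 1.17.1 and pandas 2.3.3 were used.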

Additional observations from a re-analysis of the deposited data

How the results depend on the processing

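Of 155 alternative values for 33 results, 122 stayed close to the value reported, which is within 1.5 times for counts of bins, stretches and windows and within the 95% counting interval for levels, ratios and shares, and 33 moved. No change whose interval excluded 0 turned its sign. The log2 ratios of C/EBPα at 48 over 0 hpi between J and C, whose intervals included 0, did so, from -0.07 to 0.16 in a 500-bp window and to 0.03 relative to the flanks in Igh, and from 0.16 to -0.43 in a 500-bp window in Igk. Scaled by the reads outside enriched bins, the locus levels were 6701 in Igh, 5798 in Igk and 1228 in Igl. At 5 times the library mean, 557 bins were enriched for C/EBPα and 346 for PU.1, and at 20 times 92, 55 and 88 for C/EBPα, C/EBPβ and PU.1. With at least 10 reads, 42 bins were enriched for C/EBPβ and 134 for PU.1, and 48 for C/EBPβ with libraries thinned to the smallest. Stretches without reads numbered 30 at 5 kb or more, 0 at 20 kb or more, 11 without the C/EBPα libraries and 28 in the PU.1 libraries alone. Low windows numbered 37 at a ratio of 0.05, 149 at 5 kb and 21 at 20 kb. Bins higher for PU.1 at 48 hpi numbered 15 at 3-fold. Bins lower for C/EBPα at 48 hpi numbered 10 at 1.5-fold, 2 at 3-fold, 3 with a pseudocount of 2 and 3 relative to the flanks, and at 3 hpi 1 at 3-fold. Ratios at V segment starts were 1.52, 1.43 and 1.44 within 500 bp for C/EBPα, C/EBPβ and PU.1, 1.75 for PU.1 within 100 bp, and 2.75, 2.20 and 2.38 at the 3′ end. In the central 100 bp of the bins the octamer was in 0%, the E-box in 11.4% and the PU.1-IRF pair in 5.71%, against 11.4% for the pair in whole bins. The cause was not tested beyond the construction of each alternative. No paired analysis was made. Each factor and time had 1 library, so that times within a factor had no replicates, and factors paired by time were not tested. Depth limits C/EBPβ most, and alternatives relative to the flanks, to the V segment ends and to single sets of libraries were chosen after seeing the data.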

Other observations

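Just outside the loci, one bin shared the C/EBPα course of the bins downstream of Iglc3 and Iglc2 with few PU.1 reads, and another shared the courses of both factors. On chromosome 16, 1058 bp below the lower bound of Igl (chr16:19025601-19025800), C/EBPα reads numbered 0, 14, 71, 152, 62, 0, 1 and 1 from 0 to 48 hpi, and PU.1 reads 0, 5, 1, 1 and 0. At 19258 bp below it (chr16:19007401-19007600), PU.1 reads were 54, 43, 11, 11 and 2 and C/EBPα reads 1, 18, 38, 65, 18, 1, 1 and 1.

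Other bins of the flanks still had reads of their factors at 48 hpi. The bin in Zfp386, 44836 bp above Igh, had 79, 70, 83, 68 and 108 PU.1 reads. The bin in Rpia, 47257 bp above Igk, had 24, 28, 19, 26 and 97 C/EBPβ reads. In normalised reads, C/EBPβ there rose from 56.0 at 0 hpi to 191 at 48 hpi, and C/EBPα went from 80.1 to 46.5. Below Igh, 40579 bp beyond the bound used here, a bin without an annotated gene had 10, 16, 21, 13 and 13 PU.1 reads.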
